A study of Mus musculus with 26 samples.

Results

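The eosinophil granule genes described here were 7 genes chosen by name, Prg2, Prg3, Epx, Ear1, Ear2, Ear6 and Ear10, out of the 52636 genes counted in each library. All 7 symbols matched an Ensembl identifier of the deposited files. The rule used names and no measured value, although the set was proposed with earlier results of these data known. RNA was sequenced from bone marrow cells of wild-type (WT) mice and of mice lacking Prss57 (Prss57-/-, labelled NSP4 KO), the gene of neutrophil serine protease 4 (NSP4), a protease of azurophilic granules, and the study asked what loss of NSP4 changes in myeloid progenitors and mast cells. The 26 libraries fell into 6 groups. Granulocyte-macrophage progenitors (GMPs, sorted as lineage-negative, SCA-1-negative, CD117+, CD34+ cells with high CD16/32) and common myeloid progenitors (CMPs, the same gate with low CD16/32) came from female mice, with 4 WT and 4 KO libraries of each. Bone marrow-derived mast cells (BMMCs, labelled BMMC-P3), grown from sorted GMPs in IL-3 and stem cell factor, came from male mice, with 5 WT and 5 KO libraries. No group received another treatment, and every KO library carried the germline Prss57 deletion. The study kept a pair of deletion strains and, by its methods, used the strain that lacks exon 2 alone outside 1 set of experiments with no RNA sequencing. The age of the mice is not given in the sources used here. BMMCs differed from the progenitors by sex, sequencing run, pool and culture together, and these cannot be told apart, so BMMC levels are given beside the progenitor levels with no test.

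Eosinophils store toxic cationic proteins in large crystalloid granules and release them on activation. Prg2 encodes the precursor of major basic protein, which forms the granule core, and Prg3 encodes its homologue. Epx encodes eosinophil peroxidase, a heme enzyme of the granule matrix, and the Ear genes encode eosinophil-associated ribonucleases of the ribonuclease A superfamily, a family that has expanded by duplication in rodents. Like the granule proteins of neutrophils, these proteins are made mainly by immature cells in the bone marrow, in the steps that follow lineage commitment. Basophils can also carry Prg2 RNA.

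Depth ranged from 18627626 to 53264762 reads on genes per library. Prss57 checked the labels, with 18064 to 26556 reads in the WT GMP libraries against 6 to 25 in the KO GMP libraries, 2261 to 3926 in WT CMPs against 1 in each KO CMP library, and 2 to 27 in WT BMMCs against 0 in every KO BMMC library. A pair of libraries stood apart in the measurements below, and values without them are given where a result rests on them. KO GMP replicate 4 had a summed level of 7 late neutrophil markers of 1166 normalized RPKM (reads per kilobase of gene relative to library depth, scaled by the authors' size factor for each library) against 189 to 674 in the other GMP libraries. KO BMMC replicate 3 had a summed level of 10 monocyte and macrophage markers of 140 normalized RPKM against 1158 to 1817 in the other BMMC libraries. All 4 eosinophil surface and enzyme markers that were looked for (Il5ra, Ccr3, Siglecf and Alox15) had more than 3 reads, the floor used here, in at least 1 library of each group, but their summed level was low, 12.99 to 19.8 normalized RPKM in GMPs, 6.95 to 9.84 in CMPs and 3.82 to 9.68 in BMMCs. In bulk RNA, fewer cells of a type and less RNA per cell cannot be told apart.

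The 7 genes lie at 3 places in the GRCm38 mouse genome. Prg2 (ENSMUSG00000027073, chr2:84980461-84983632, forward strand) and Prg3 (ENSMUSG00000027072, chr2:84988215-84993886, forward strand) are neighbours with 4582 bases between them and have 6 exons each. Epx (ENSMUSG00000052234) has 13 exons at chr11:87864000-87875536 on the reverse strand. The Ear genes lie on chromosome 14, with Ear1 (ENSMUSG00000072601) at chr14:43818765-43875517 and Ear10 (ENSMUSG00000090166) at chr14:43922720-43923559, both on the reverse strand, and Ear2 (ENSMUSG00000072596) at chr14:44102654-44103534 and Ear6 (ENSMUSG00000062148) at chr14:51853699-51854643, both on the forward strand. The coding sequences of Prg2 and Prg3 were 64.3% identical over their global alignment, whereas those of Ear2 and Ear10 were 97.0% identical, those of Ear1 and Ear2 95.1% and those of Ear1 and Ear6 87.3%.

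The closeness of the Ear copies bears on how their reads were counted, since the reads were 50 bases long and the authors kept only reads that aligned to 1 place. The stretches below show this for the 50 coding bases in which Ear1 and Ear2 differed most, bases 121 to 170 of each coding sequence (numbered from 1 at the A of the start codon). Capitals mark the 10 positions that vary among the 4 genes. They lie at chr14:43819240-43819289 (Ear1, reverse strand), chr14:44103007-44103056 (Ear2, forward), chr14:43923199-43923248 (Ear10, reverse) and chr14:51854118-51854167 (Ear6, forward).
Ear1: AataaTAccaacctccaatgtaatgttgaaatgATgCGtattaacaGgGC
Ear2: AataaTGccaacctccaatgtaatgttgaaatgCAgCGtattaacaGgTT
Ear10: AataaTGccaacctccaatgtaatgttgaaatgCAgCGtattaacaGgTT
Ear6: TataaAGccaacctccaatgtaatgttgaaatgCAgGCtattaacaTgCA
Ear2 and Ear10 were identical over this window, Ear1 differed from Ear2 at 5 of the 50 positions and Ear6 at 7. Over the whole of the longest annotated transcript, 283 of 664 windows of 50 bases in Ear1 (42.6%), 392 of 670 in Ear2 (58.5%) and 378 of 629 in Ear10 (60.1%) occurred in no transcript of another gene on either strand. The share was 98.9% for Ear6 (835 of 844) and 100% for Prg2, Prg3 and Epx. The normalized RPKM divides by gene length whether or not a read from it could be placed, so the printed levels of Ear1, Ear2 and Ear10 count part of their length, and levels of these 3 genes are uncertain against each other and against the other members.

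The Ear copies also share their upstream sequence. Over the 250 bases before the annotated start (RefSeq, GRCm38.p6, with an entry for 6 of the 7 members), Ear1 and Ear2 were 97.6% identical, Ear2 and Ear10 90.6% and Ear2 and Ear6 77.3%. A match to the C/EBP motif TTNNGNAA, searched on both strands, lay at the same place in this alignment in all 4 Ear genes. It is shown in capitals with 30 bases on each side, and its part in the levels of these genes was not tested. The stretches lie at chr14:43819694-43819761 (Ear1, reverse strand), chr14:44102534-44102601 (Ear2, forward), chr14:43923653-43923720 (Ear10, reverse) and chr14:51853626-51853693 (Ear6, forward). The Ear1 stretch is upstream of the RefSeq start of Ear1 but inside the longer gene span given above, which came from another annotation (GENCODE).
Ear1: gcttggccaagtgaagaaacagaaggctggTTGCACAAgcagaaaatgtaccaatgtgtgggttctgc
Ear2: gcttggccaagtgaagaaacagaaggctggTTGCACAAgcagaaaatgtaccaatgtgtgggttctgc
Ear10: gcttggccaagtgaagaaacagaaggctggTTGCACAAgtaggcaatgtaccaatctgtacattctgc
Ear6: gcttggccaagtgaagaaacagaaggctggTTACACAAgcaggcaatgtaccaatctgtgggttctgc
Ear1 did not differ from Ear2 in these 68 bases, Ear6 differed at 4 and Ear10 at 7. The C/EBP letters were found in the upstream sequence of 5 of the 6 members with an entry and in 36.8% of all 32851 promoters of the same length. The GATA letters (GATA with an A or T before it and an A or G after it, on both strands) were found in 1 of the 6, Prg3, and in 26.5% of all promoters, and the PU.1 letters GAGGAA in 0 of the 6 and in 23.3% of all promoters. The upstream sequence of Prg3, at chr2:84987965-84988214 on the forward strand, is given with both of its matches in capitals, the GATA match first.
Prg3: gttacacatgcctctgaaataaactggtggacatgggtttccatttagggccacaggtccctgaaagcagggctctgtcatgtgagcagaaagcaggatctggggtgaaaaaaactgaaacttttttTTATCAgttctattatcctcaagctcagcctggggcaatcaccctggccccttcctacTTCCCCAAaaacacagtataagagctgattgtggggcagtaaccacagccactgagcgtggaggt
A match describes these letters only.

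Prg2 was among the most abundant RNAs of GMPs. It had 78191, 69079, 78312 and 98712 reads in WT GMP libraries 1 to 4, or 1982, 1361, 1844 and 2197 normalized RPKM, with a mean of 1846 ± 354 (SD, n = 4). This mean ranked 14th among 22159 genes with reads in WT GMPs. In KO GMP libraries 1 to 4 its level was 1388, 1112, 1747 and 4062 normalized RPKM (2077 ± 1349, n = 4), and the last of these lay far above the other libraries of either genotype. In CMPs the level was 5.09, 0.279, 28.2 and 26.3 normalized RPKM in WT (15.0 ± 14.3) and 1.64, 26.2, 31.4 and 76.6 in KO (33.9 ± 31.2). The lowest GMP library was thus above the highest CMP library in both genotypes, but the CMP libraries of 1 genotype differed from each other by 101-fold in WT and 46.6-fold in KO. The 7 genes together took 0.163% to 0.269% of all reads on genes in WT GMPs, 0.132% to 0.459% in KO GMPs and at most 0.00874% in a CMP library.

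Prg3 followed at a lower level. Its normalized RPKM was 85.4, 53.0, 87.7 and 94.7 in WT GMP libraries 1 to 4 (80.2 ± 18.5) and 65.9, 52.5, 78.6 and 188 in KO GMP libraries (96.3 ± 62.1). In CMPs it was 0.610, 0.246, 1.31 and 1.19 in WT and 0.226, 1.31, 2.91 and 1.76 in KO. As for Prg2, WT CMP replicate 2 and KO CMP replicate 1 were the lowest libraries of their groups. Epx, the peroxidase, had 51.1, 64.1, 108 and 119 normalized RPKM in WT GMPs (85.6 ± 33.1) and 80.4, 47.2, 94.9 and 179 in KO GMPs (100.3 ± 56.0). In CMPs it had 0.415, 0.0289, 1.57 and 0.630 in WT, from 4 reads in the lowest library to 268 in the highest, and 0.0285, 0.384, 1.02 and 2.19 in KO. No CMP library reached any GMP library for either gene.

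Among the ribonucleases, Ear6 was the highest in GMPs, with 27.2, 14.9, 45.7 and 50.9 normalized RPKM in WT (34.7 ± 16.7) and 19.0, 13.3, 38.1 and 124 in KO (48.6 ± 51.5). In CMPs it had 3, 0, 46 and 3 reads in WT and 1, 29, 26 and 75 reads in KO, so 3 of the 4 WT libraries lay at or under the floor of 3 reads. Ear1 had 8.87, 4.46, 9.92 and 14.2 normalized RPKM in WT GMPs (9.36 ± 4.00) and 5.47, 3.97, 6.25 and 26.6 in KO GMPs (10.6 ± 10.7). Its CMP reads were 0, 0, 21 and 0 in WT and 0, 0, 8 and 2 in KO, so that its whole CMP signal in WT came from replicate 3. Ear2 had 6.11, 6.27, 10.0 and 12.04 normalized RPKM in WT GMPs (8.62 ± 2.92) and 4.93, 3.40, 7.39 and 29.9 in KO GMPs (11.4 ± 12.4). It had 5, 5, 12 and 4 reads in WT CMPs and 0, 0, 5 and 27 in KO CMPs. Ear10 had 1 read in 1 WT GMP library and 0 in the other 7, 0 in every CMP library and 1 read in each of 2 BMMC libraries, at or under the floor of 3 reads throughout, which at these depths corresponded to 0.0563 to 0.161 CPM (counts relative to library depth). This limit covers counting error only, and reads that Ear10 shares with its copies were not counted for any gene.

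**Figure D1:**
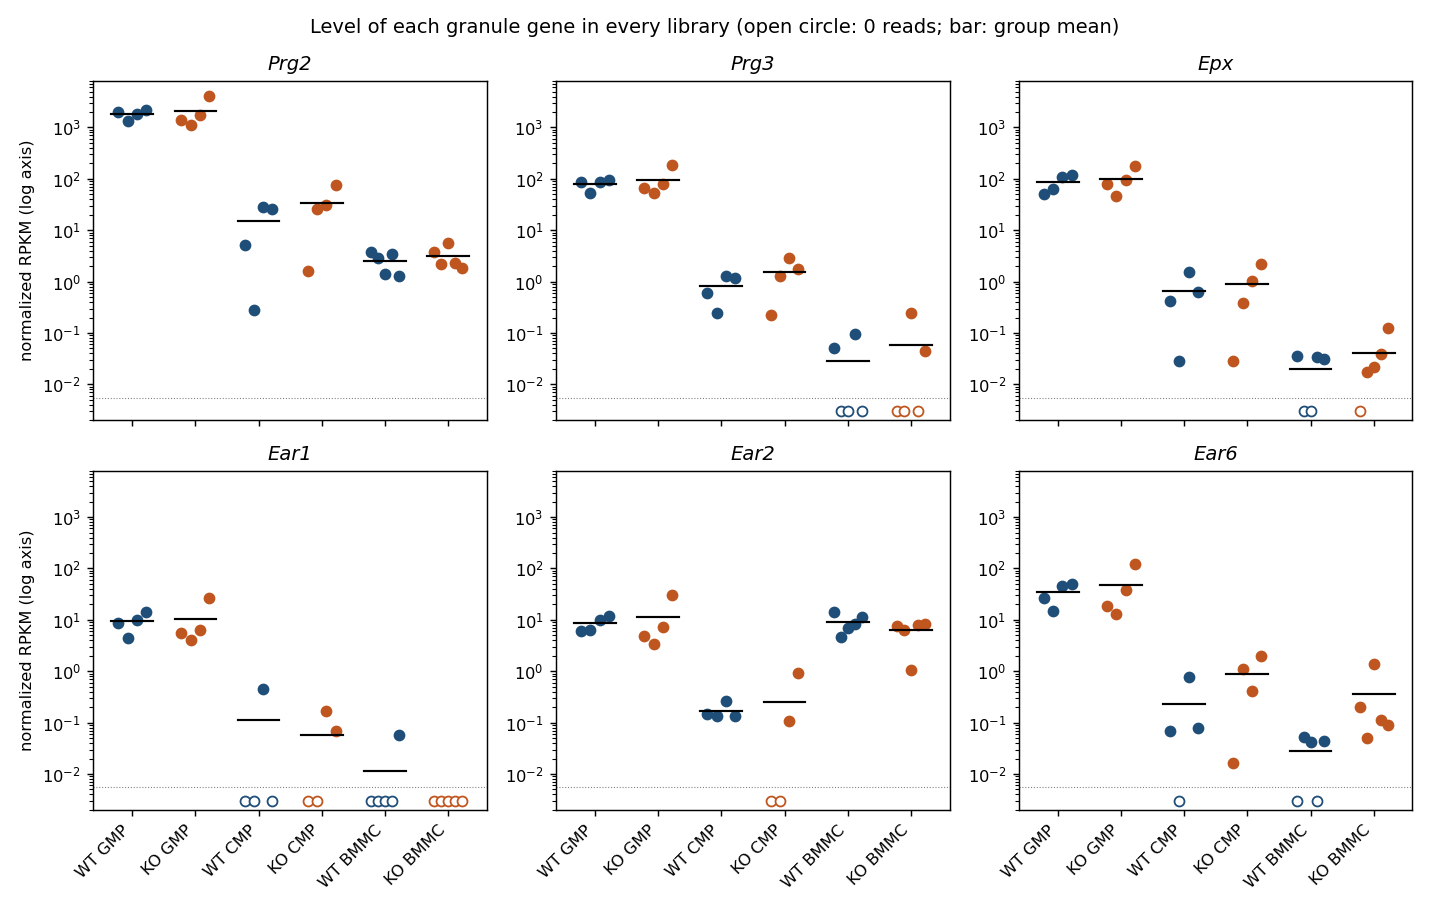
Normalized RPKM of Prg2, Prg3, Epx, Ear1, Ear2 and Ear6 (log axis) in each of the 26 libraries by group, with WT in blue and KO in orange. Each point is 1 library, the bar is the group mean, and open circles under the dotted line are libraries with 0 reads. For all 6 genes every GMP library lies above every CMP library, and among BMMCs only Ear2 reaches its GMP range.

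The GMP against CMP comparison asked how the granule genes differ between these stages, first within WT. It used edgeR's quasi-likelihood test over all 14967 genes that passed the filter on low counts, and a gene was called at a Benjamini-Hochberg adjusted p under 0.01 with a fold change of at least 2. Prg2 and Prg3, the 2 members that pass the filter on their CMP libraries alone, were both called higher in WT GMPs, beside 6.28% of all genes tested. Epx, Ear1, Ear2 and Ear6 passed only through their GMP reads and so had to differ, and their values are given as a description of size, while Ear10 did not pass. Prg2 was higher by a log2 fold change of 6.95 ± 1.04 (SE, adjusted p = 0.000584), Prg3 by 6.58 ± 0.43 (adjusted p = 3.1e-06) and Epx by 6.99 ± 0.78 (adjusted p = 8.47e-05). Ear6 was higher by 7.07 ± 0.80 (adjusted p = 9e-05), Ear1 by 6.11 ± 0.87 (adjusted p = 0.000407) and Ear2 by 5.60 ± 0.37 (adjusted p = 3.1e-06). These folds stood between the 24th and the 50th largest of all genes tested. The groups did not overlap for Prg2 and Prg3, beside 15.3% of all genes tested in this direction. Those of Epx, Ear1, Ear2 and Ear6 did not overlap either, which the filter through GMP reads made likely in advance. The fitted folds of Ear1 and Ear6 rest on CMP groups mostly at or under 3 reads, depend on the prior count of the fit and are no bounds. Without WT CMP replicate 3 the fitted value of Ear1 was 11.44.

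The KO libraries gave the same contrast in cells that share no library with the first. Prg2 and Prg3 were again the 2 members that pass the filter on their CMP libraries alone, and both were called higher in KO GMPs, beside 4.04% of the 14959 genes tested. Prg2 was higher by a log2 fold change of 5.98 ± 1.03 (adjusted p = 0.00349) and Prg3 by 5.98 ± 0.76 (adjusted p = 0.000723) in edgeR's test. Epx, Ear1, Ear2 and Ear6 again passed only through their GMP reads. Epx was higher by 6.83 ± 1.07 (adjusted p = 0.00215), Ear6 by 5.93 ± 1.12 (adjusted p = 0.00551) and Ear1 by 7.26 ± 1.01 (adjusted p = 0.00115), and the fitted fold of Ear1, set against CMP libraries with 0, 0, 8 and 2 reads, is no bound. Ear2 had a log2 fold change of 5.56 ± 1.21 and was not called (adjusted p = 0.0114), although its GMP and CMP libraries did not overlap. The groups did not overlap for Prg2 and Prg3, beside 14.5% of all genes tested in this direction. Those of Epx, Ear1 and Ear6 did not overlap either, which, as for Ear2, the filter through GMP reads made likely in advance. The number of members called, 5 in KO, was less stable than in WT, since it was 2 without KO CMP replicate 3, 3 without KO GMP replicate 3 and 6 without KO CMP replicate 1. Prg3 and Ear1 were the members called without KO CMP replicate 3. With the 4 Ear members replaced by 1 sum of all Ear genes, that sum was higher in GMPs by 6.65 ± 0.71 in WT (adjusted p = 6.25e-05) and by 5.98 ± 1.14 in KO (adjusted p = 0.00573). Ear1, Ear2 and Ear6, which make up nearly all of it, passed the filter only through their GMP reads. The sum is therefore likewise given as a description of size.

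**Figure D2:**
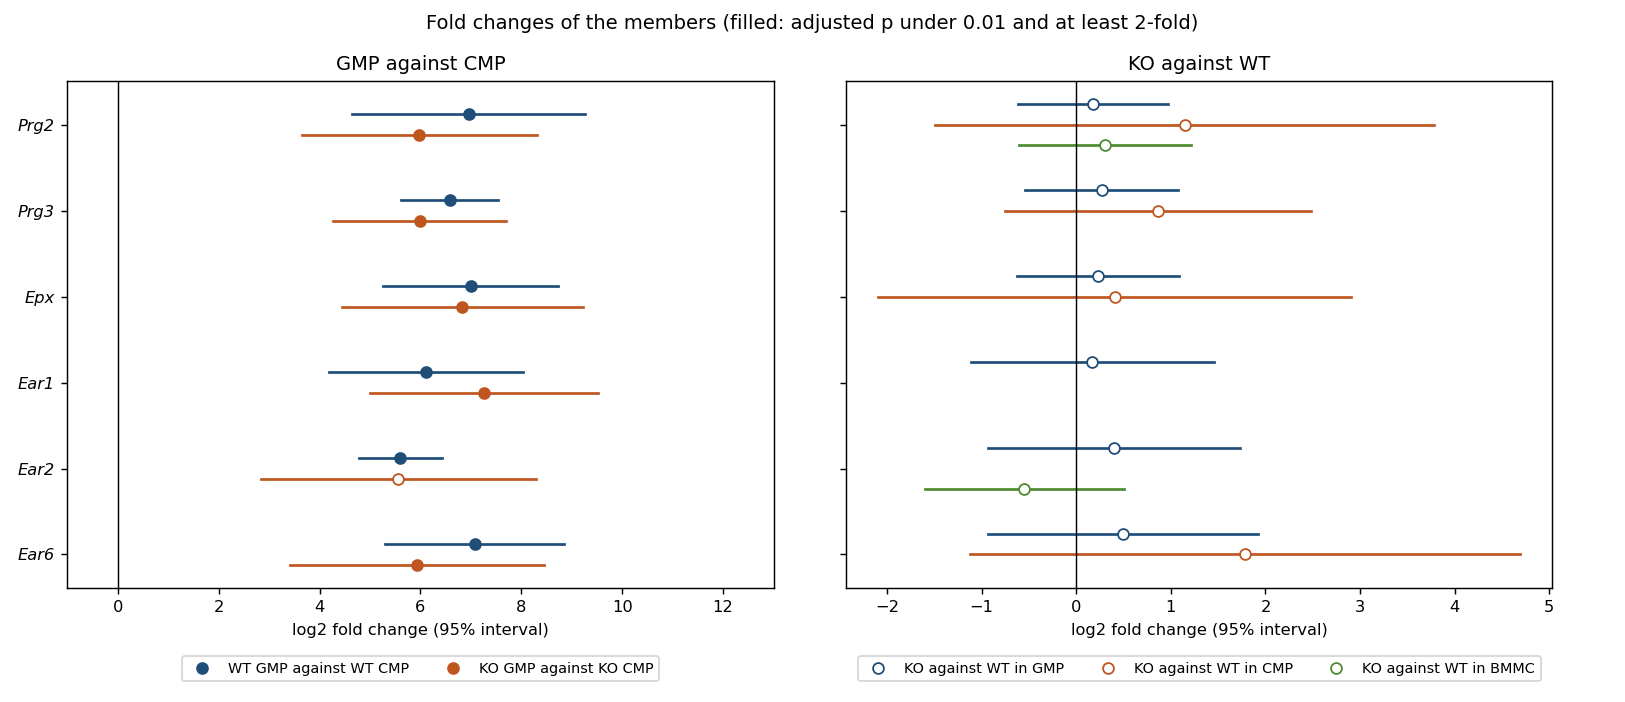
Log2 fold changes of the members from edgeR with 95% intervals, GMP against CMP within WT and within KO (left) and KO against WT within GMPs, CMPs and BMMCs (right). Filled points are called and open points are not; members that did not pass the filter have no point. All GMP against CMP values lie between 5.56 and 7.26, and every interval of KO against WT spans 0.

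Summed markers of several other myeloid cells, though not of dendritic cells, moved with the members between CMPs and GMPs. The summed level of 9 basophil markers (Mcpt8 and Prss34 among them) was 2082 to 3180 normalized RPKM in GMPs against 168 to 227 in CMPs, that of 6 early neutrophil markers 25358 to 37267 against 3820 to 9560, and that of 7 late neutrophil markers 189 to 1166 against 2.88 to 8.93, while 8 erythroid and megakaryocyte markers had 53.2 to 128 in GMPs against 1527 to 3726 in CMPs. Mast cell markers (11 genes) summed to 470.2 to 710.2 in GMPs against 159 to 185 in CMPs, and 10 monocyte and macrophage markers to 1127 to 1784 against 207 to 365. Of those 10, 5 were called higher and 2 lower in WT GMPs, beside 6.28% and 6.53% of all genes tested. In KO GMPs 3 were called higher and 0 lower, beside 4.04% and 4.38%. The summed level of 4 dendritic cell markers went the other way, at 9.17 to 19.3 in GMPs against 37.2 to 58.7 in CMPs. Of these genes 3 were tested, and 1 was called lower and 0 higher in each genotype, beside the 6.53% (WT) and 4.38% (KO) of all genes tested called lower. All 9 basophil, 10 of 11 mast cell, 10 monocyte and macrophage, 6 early and 7 late neutrophil markers were above the floor in a GMP library. Beside 6.28% of all genes tested called higher in WT and 4.04% in KO, 7 of 8 granule genes of other granulocytes were called higher in WT GMPs and 6 in KO GMPs, and 0 lower. They were the secondary granule genes Ltf (lactoferrin, log2 fold change 9.87 in WT and 7.88 in KO), Camp (cathelicidin, 9.04 and 6.91) and Ngp (8.10 and 7.50), and the azurophilic granule genes Elane (neutrophil elastase, 3.72 and 2.91), Mpo (myeloperoxidase, 2.29 and 2.07), Prtn3 (proteinase 3, 2.26 and 1.76) and Ctsg (cathepsin G, called at 2.00 in WT). Srgn, the granule proteoglycan serglycin, had 0.88 in WT and was called in neither genotype. In CMPs, Ltf was at 0.0266 normalized RPKM in WT and 0.0896 in KO, so its fitted folds are no bounds. On the WT and KO CMP libraries alone, 7 of the 8 genes passed the filter. The gene that did not was tested here only through its GMP reads and had to differ, so the counts called are in part a description. The part of such cells in the members' levels was not tested.

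Of 24 eosinophil lineage genes, 11 were called higher and 4 lower in WT GMPs, and 11 higher and 3 lower in KO GMPs. Of all genes tested, 6.28% were called higher and 6.53% lower in WT, and 4.04% higher and 4.38% lower in KO. On the WT and KO CMP libraries alone, 23 of the 24 passed the filter. The gene that did not was tested here only through its GMP reads and had to differ. Their median log2 fold change was 1.04 in WT and 1.03 in KO, beside -0.02 and -0.03 for all genes tested. The list was chosen for what its genes are known to do, and it holds receptors and factors that other myeloid cells share. The 8 genes called in WT with the largest folds were each called in KO too. Alox15, a lipoxygenase of eosinophils and macrophages, was higher in GMPs by 7.69 ± 0.48 in WT and 6.75 ± 0.65 in KO, with WT CMPs at 0.0126 normalized RPKM, so these folds are no bounds. The transcription factor Cebpe was higher by 4.15 ± 0.37 and 3.29 ± 0.51, Id1 by 2.36 ± 0.40 and 2.38 ± 0.37, and Cebpb by 2.33 ± 0.29 and 2.33 ± 0.30. The surface receptor gene Adgre1 was higher by 2.36 ± 0.17 and 2.19 ± 0.28. Gata1, a factor needed for eosinophil formation and for the erythroid and megakaryocyte lineages, was lower in GMPs (-3.06 ± 0.13 in WT and -2.92 ± 0.18 in KO), as were its cofactor Zfpm1 (-3.21 ± 0.20 and -3.12 ± 0.29) and Ltc4s, the leukotriene C4 synthase (-2.15 ± 0.33 and -2.58 ± 0.36). Gata1 was at 9.83 normalized RPKM in WT GMPs against 82.9 in WT CMPs, a difference opposite in direction to that of the granule genes. The next genes were chosen after their values were seen. Il5ra, the alpha chain of the IL-5 receptor, was at 0.445 normalized RPKM in WT GMPs and 0.0682 in WT CMPs, with a log2 fold change of 2.70 ± 0.67 that was not called in WT (adjusted p = 0.0104) and one of 2.59 ± 0.43 that was called in KO (adjusted p = 0.00278) by edgeR. Siglecf and Ccr3, surface markers of mature eosinophils, were called in neither genotype, and neither was Gata2 (-0.19 ± 0.19 in WT and -0.05 ± 0.27 in KO). In KO against WT, 0 of the 24 were called in GMPs, in CMPs (23 tested) or in BMMCs by edgeR.

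The libraries of 1 group differed among themselves in these genes more than in most. The SD of log2 CPM within genotypes was 2.68 for Prg2 over the 8 CMP libraries, against a median of 0.412 over 12766 genes, and 0.00783% of those genes had a larger SD. It was 2.33 for Epx and 1.26 for Prg3. In the 8 GMP libraries it ran from 0.574 for Prg2 to 1.12 for Ear6, against a median of 0.243 over 12355 genes. Without KO GMP replicate 4 it was 0.296 for Prg2, 0.334 for Prg3, 0.580 for Epx, 0.571 for Ear1, 0.522 for Ear2 and 0.790 for Ear6, against a median of 0.222, and 30.6% of genes then had a larger SD than Prg2. The low and high libraries were largely shared by the genes. Prg2, Prg3 and Epx were lowest in WT CMP replicate 2 among WT CMPs and in KO CMP replicate 1 among KO CMPs, and all 6 expressed members were highest in KO GMP replicate 4 among KO GMPs and lowest in KO GMP replicate 2. The summed late neutrophil markers were 2.88 normalized RPKM in WT CMP replicate 2 and 4.03 in KO CMP replicate 1, the lowest of each group. The other WT CMP libraries had 3.12 to 8.12 and the other KO CMP libraries 4.76 to 8.93, a far smaller spread than that of Prg2. Other lists did not all share this order. In WT CMP replicate 2, early neutrophil markers summed to 5348, basophil markers to 195 and monocyte and macrophage markers to 238. Each was above WT CMP replicate 1 (3820, 171 and 207). In KO CMP replicate 1, the early neutrophil (4726) and basophil (168) sums were the lowest of the group, and the monocyte and macrophage sum (271) was not. The part of these markers' cells in the departures was not tested. The CMP and GMP libraries shared a pool. Prss57 had 1 read in each KO CMP library, 6 to 25 in the KO GMP libraries and up to 26556 in a WT GMP library. Carry-over of reads between libraries was not tested.

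**Figure D3:**
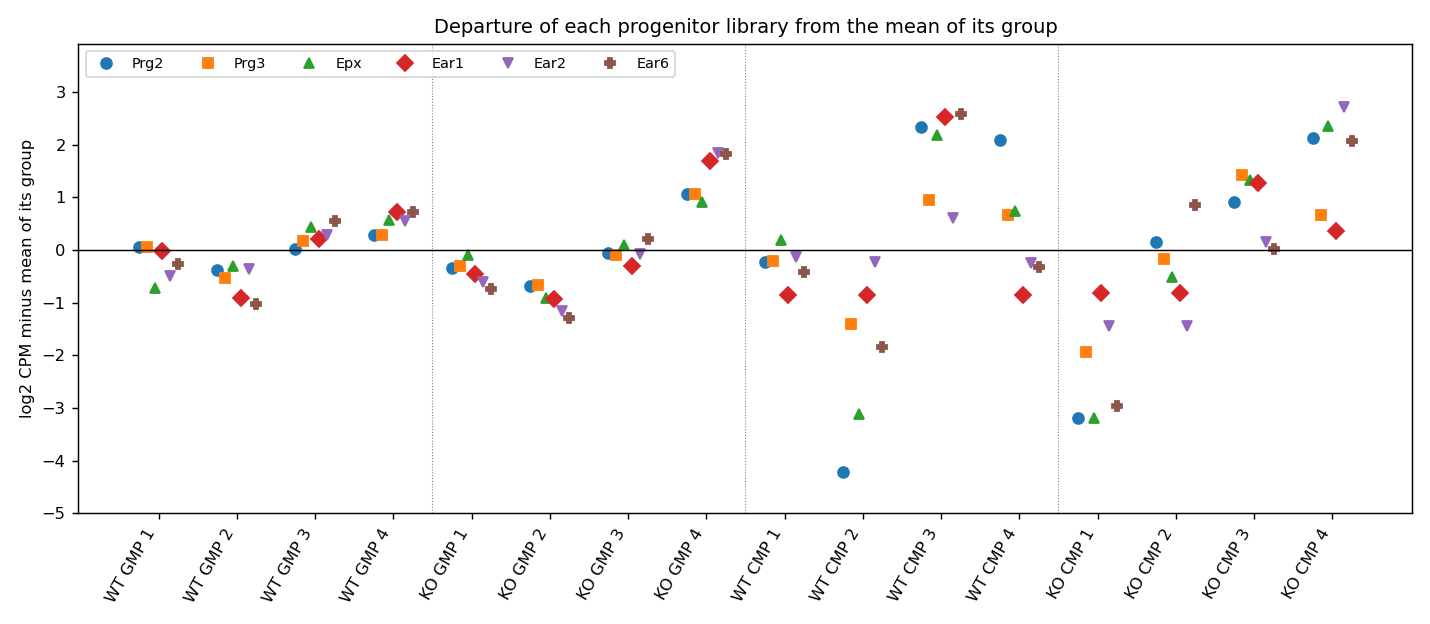
Departure of each of the 16 progenitor libraries from the mean of its group, in log2 CPM, for 6 members (symbols). KO GMP 4 lies above its group mean for all 6 genes, and WT CMP 2 and KO CMP 1 lie lowest of their groups for Prg2, Prg3 and Epx.

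The genes whose departures were most like those of Prg2 over the 16 progenitor libraries, among 12705 genes, were Epx (Pearson r = 0.946), G0s2 (0.905), Prg3 (0.888), Tmem38b (0.830) and Gm14085 (0.820). For Epx they were Prg2, Prg3 (0.909), Ear6 (0.865), Olr1 (0.864) and Tigar (0.847). For Ear2 no other member was among the first 5, which were Narfl, Trmt12, Fancf, Rrm2 and 9430069I07Rik (0.814 to 0.841). These r values describe departures from group means within shared libraries and carry no test. Over the 8 GMP libraries alone, a choice made after the data were seen, Prg3 came first for Prg2 (0.989) and Prg2 was the second for Ear2 (0.957), but without KO GMP replicate 4 the value of Prg3 against Prg2 was 0.962 (the third) and that of Prg2 against Ear2 was 0.809 (rank 476) over 7 libraries, with no member among the first 5 for Ear2.

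The KO against WT comparisons asked whether loss of NSP4 changed these genes within each cell type. In GMPs, 0 of the 6 members tested were called by edgeR, beside 0.00681% of all genes tested, which was Prss57 alone. The log2 fold changes were 0.18 ± 0.36 for Prg2, 0.27 ± 0.37 for Prg3, 0.23 ± 0.39 for Epx, 0.17 ± 0.58 for Ear1, 0.40 ± 0.60 for Ear2 and 0.49 ± 0.64 for Ear6, all with an adjusted p of 1.00. None had an unadjusted p under 0.05 with edgeR (smallest 0.462), and voom with limma and DESeq2 called 0 as well. The 95% interval of Prg2 ran from -0.62 to 0.97 and that of Ear6 from -0.94 to 1.92, so a 2-fold rise lay outside the interval of Prg2 and inside those of the other 5 genes. All 6 values turned negative without KO GMP replicate 4, to -0.38 for Prg2, -0.29 for Prg3, -0.21 for Epx, -0.84 for Ear1, -0.72 for Ear2 and -0.56 for Ear6. The KO and WT groups overlapped for every member, beside 0.994% of all genes tested that did not overlap.

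In CMPs, 4 members passed the filter and 0 were called, beside 0.0067% of all genes tested. Prg2 had a log2 fold change of 1.14 ± 1.17, Prg3 0.86 ± 0.72, Epx 0.40 ± 1.11 and Ear6 1.79 ± 1.29, with adjusted p values of 1.00 in edgeR, 0 unadjusted p under 0.05 and 0 calls by voom or DESeq2. The interval of Prg2 ran from -1.49 to 3.78, so a 4-fold rise lay inside it and a 4-fold fall lay outside it. The groups overlapped for every member, beside 0.818% of all genes tested that did not overlap. Whether the genotype effect differed in size between GMPs and CMPs was tested in 1 fit of these libraries, and it was called for 0 of the 6 members tested, beside 0% of 15900 genes, with 0 members and 169 genes at an unadjusted p under 0.05 and 0 members called by voom or DESeq2.

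In BMMCs, the members were at or near the floor with 2 exceptions. Prg2 had 3.74, 2.88, 1.39, 3.38 and 1.32 normalized RPKM in WT BMMC libraries 1 to 5 (2.54 ± 1.13, n = 5) and 3.79, 2.20, 5.72, 2.26 and 1.84 in KO (3.16 ± 1.61), from 26 to 82 reads per library. Ear2 had 14.3, 4.55, 7.09, 8.45 and 11.5 normalized RPKM in WT (9.19 ± 3.82) and 7.76, 6.31, 1.06, 7.94 and 8.33 in KO (6.28 ± 3.02). The Ear2 level was thus within the range of GMPs in every BMMC library but KO BMMC replicate 3, while Prg2 was far below it and inside the range of CMPs. Prg3 had at most 4 reads in a BMMC library, Epx at most 8 and Ear1 at most 1. Ear6 had 0 or 1 read in WT BMMCs and 4, 1, 22, 3 and 2 in KO BMMCs, of which the 22 were in replicate 3.

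Neither Prg2 (log2 fold change 0.30 ± 0.41) nor Ear2 (-0.55 ± 0.47) was called between KO and WT BMMCs, beside 0% of the 13938 genes tested by edgeR, of which 332 had an unadjusted p under 0.05. The adjusted p of both was 1.00, and their intervals ran from -0.60 to 1.21 and from -1.60 to 0.50. Without KO BMMC replicate 3, the values were -0.02 and -0.28. DESeq2, which also tested the members with few reads, called 0 and gave 1 unadjusted p under 0.05, for Ear6 (log2 fold change 3.64), the gene with 22 reads in KO BMMC replicate 3. The groups overlapped for every member, beside 0.717% of all genes tested that did not.

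The make-up of the Ear family differed between the cell types. Of 9590 reads on Ear1, Ear2, Ear6, Ear10, Ear14, Rnase2a and Rnase2b in the WT GMP libraries together, 71.2% were on Ear6, 14.9% on Ear1, 13.7% on Ear2 and 0.24% on Rnase2a. In KO GMPs the shares were 74.0%, 12.6%, 13.2% and 0.26% of 10884 reads. In WT BMMCs, 72.6% of 2752 reads were on Rnase2a and 26.9% on Ear2, with 0.109% on Ear6. In KO BMMCs, 67.0% of 1755 reads were on Rnase2a, 30.1% on Ear2 and 1.82% on Ear6, but Ear2 took most reads in KO BMMC replicate 1 (51.6% of 225) and Ear6 in replicate 3 (53.7% of 41). Rnase2a, a ribonuclease of the same family that is not one of the 7, was at 26.03 ± 10.9 normalized RPKM in WT BMMCs and 13.9 ± 10.7 in KO BMMCs (n = 5 each), against 0.169 ± 0.148 in WT GMPs and 0.231 ± 0.279 in KO GMPs. Its log2 fold change in KO against WT BMMCs was -0.90 ± 0.69 and was not called (adjusted p = 1.00 in edgeR), and it was -0.59 ± 0.41 without KO BMMC replicate 3 (adjusted p = 0.804). All 641 of its windows of 50 bases occurred in no other gene. Ear14 had 0 reads in all 26 libraries. KO BMMC replicate 3 had 41 family reads in all, 6 of them on Rnase2a and 13 on Ear2, where the other BMMC libraries had 225 to 821. In the same library the 4 dendritic cell markers summed to 7.54 normalized RPKM against 115 to 223 in the other BMMC libraries, beside the low monocyte and macrophage markers given above, and the part of such cells in the Ear2 and Rnase2a levels was not tested.

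**Figure D4:**
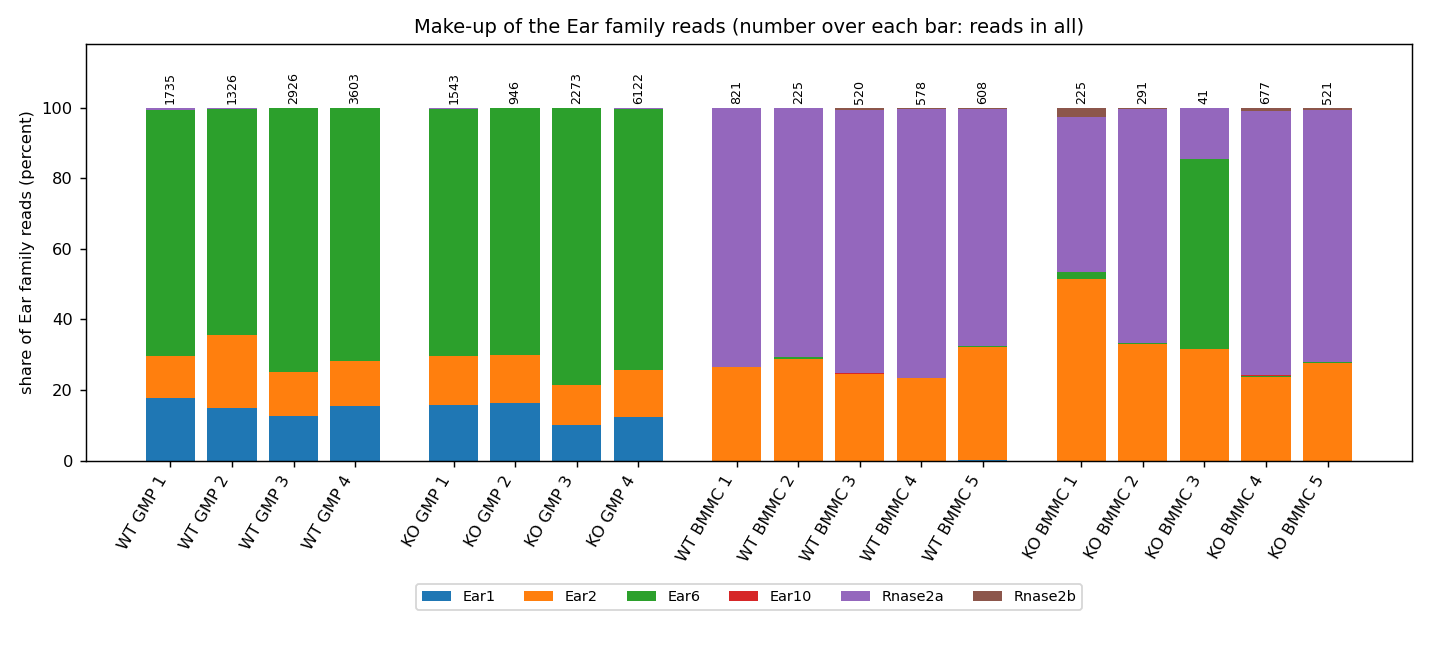
Share of the Ear family reads (percent) taken by each gene in each GMP and BMMC library, with the number of family reads above each bar. Ear6 takes most reads in all 8 GMP libraries, and Rnase2a takes most in every WT BMMC library and in KO BMMC 2, 4 and 5, while Ear2 takes most in KO BMMC 1 and Ear6 in KO BMMC 3, which rests on 41 reads.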

How the data were processed

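The deposited tables held, per gene and library, a raw count and a normalized RPKM. Per the labels and the study's methods, the authors made total RNA libraries (TruSeq Stranded), read 50 bases from 1 end, used GSNAP in HTSeqGenie on the GRCm38 build and counted uniquely placed exonic reads. The authors' RPKM was scaled by a size factor per library. The 7 members and all gene lists were chosen with earlier results of these data known. Groups came from the labels. Nothing states whether each library was 1 mouse, so p-values measure the spread between these libraries. From the deposited counts, each comparison was fitted over all genes with edgeR 4.0.16 (TMM, filterByExpr, robust quasi-likelihood) in R 4.3.3 and adjusted by Benjamini-Hochberg, with standard errors taken as the log2 fold change over the root of F. Calls needed an adjusted p under 0.01 with a 2-fold difference (for the difference of genotype effects, the adjusted p alone). The fits were tested on simulated data. Alternatives were voom with limma 3.58.1, DESeq2 1.42.0, other scalings and filters, a replicate block and leaving out each library. Besides the 7 members, genes of the fixed lists were named where called, up to 8 per list by fold, with list genes not called given as such, and for Prg2, Epx and Ear2 the 5 genes of highest r on log2 CPM (prior count 2) less the group mean. Levels between genes were compared as normalized RPKM. Positions and transcripts came from GENCODE M21 and upstream sequences from RefSeq.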

Additional observations from a re-analysis of the deposited data

Results flagged for a closer look

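Of 31 groups of 4 or 5 libraries in which a member had reads, 9 had 1 library that lay farther from the rest than Dixon's 95% critical value allows. Chance flags about 1 in 20 groups of normally distributed values. The values here were normalized RPKM without a log, and some groups were mostly 0, so that rate need not hold. The genes of a group also share its libraries. In KO GMP replicate 4, Ear1 was at 26.6 and Ear2 at 29.9. In WT CMP replicate 3, Ear1 was at 0.454, Ear2 at 0.264 and Ear6 at 0.769. In KO CMP replicate 4, Ear2 was at 0.923. In KO BMMC replicate 3, Prg3 was at 0.246 and Ear6 at 1.36, above the other libraries, while Ear2 was at 1.06, below them. The CMP values and the Prg3 and Ear6 values of BMMCs rest on 4 to 46 reads.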

How the results depend on the processing

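The count of members called in WT GMPs against WT CMPs stayed at 6 with each library left out, and the count in KO GMPs against KO CMPs ran from 2 to 6. Both counts include Epx and Ear genes that passed the filter only through their GMP reads, so the counts are a description. Over all genes tested in the main fits, 6.28% were called higher in WT and 4.04% in KO. Requiring at least 10 counts in every library left 2 members tested and called in each contrast, through fewer genes tested. In KO, voom called 4 members and DESeq2 called 6. Over all genes, leaving out 1 library gave 785 to 2266 calls in KO against 1259, DESeq2 gave 2239, and adjusted p under 0.05 without a fold limit gave 5664 in WT against 1918 and 3222 in KO. Library size alone moved the median log2 fold change of all genes in WT GMPs against WT CMPs from -0.02 to -0.16, and the members changed by far more. For KO against WT, no alternative called a member. In GMPs, voom turned Prg2 to -0.0028, Ear1 to -0.22 and Ear2 to -0.18, and in CMPs it turned Epx to -0.0020. Leaving out each library gave log2 fold changes in GMPs from -0.38 to 0.39 for Prg2, -0.29 to 0.48 for Prg3, -0.21 to 0.47 for Epx, -0.84 to 0.46 for Ear1, -0.72 to 0.71 for Ear2 and -0.56 to 0.81 for Ear6. It gave -0.50 to 1.32 for Epx in CMPs and -0.017 to 0.49 for Prg2 in BMMCs. The number of members whose KO and WT groups did not overlap ran from 0 to 1 in CMPs and in BMMCs. The causes of these changes were not tested. The spread among GMP libraries without KO GMP replicate 4, the Rnase2a value without KO BMMC replicate 3 and the filter on CMP libraries alone were chosen after seeing the data.

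Whether the replicate numbers pair the samples was not settled, and the main fits were unpaired. In no comparison did every pair of same-numbered libraries correlate above 0.1 in their departures (2 of 4, 3 of 4, 2 of 4, 3 of 4 and 1 of 5 pairs). The mean r of same-numbered libraries was 0.169 for GMPs against CMPs in WT and 0.271 in KO, against -0.083 and -0.089 for different numbers. For KO against WT it was 0.241 against -0.097 in CMPs, -0.056 against 0.029 in GMPs and -0.069 against 0.032 in BMMCs. With the replicate block, 6 members were called in both GMP against CMP contrasts, of which Prg2 and Prg3 alone pass the filter on CMP libraries. This count is a description and is not set against the share of all genes called with the block. Ear2 in KO had an adjusted p of 0.000544 in edgeR with the block and 0.0114 without it. In each KO against WT comparison 0 members were called with the block, and Prg2 stood at -0.0033, Ear1 at -0.15 and Ear2 at -0.079 in GMPs.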
